A study of Mus musculus with 22 samples.

Results

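Covi-Ox, a mixture of tocopherols fed without any toxin, was compared with untreated negative controls in wild-type (WT) mouse microglia, on 5 of the 22 arrays of the study. The comparison takes the 3 arrays titled for Covi-Ox alone and the 2 arrays titled as WT negative controls, and covers all 11830 genes that passed a filter on dim signals, of 19936 genes with a probe set of their own. Microglia, the resident macrophages of the brain, were isolated from dissociated brains by flow sorting on 3 surface markers (CD11b, CD45 and F4/80), and expression was measured on Affymetrix gene arrays. The study crossed WT and Trem2 knockout (KO) mice with diets holding cuprizone, a copper chelator toxic to the cells that make myelin, with Covi-Ox, or with both.

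The WT Covi-Ox mice had received feed with Covi-Ox T70 at 0.1%, to which alpha tocopherol had been added, for 4 weeks according to the array labels. The WT control mice are labelled as negative controls, with no additive and no duration. WT mice fed both additives (3 arrays, cuprizone at 0.2%) and WT mice fed cuprizone alone (3 arrays) serve below as a second pair that differs by Covi-Ox. All of these mice carry intact Trem2, and no transgene, strain, age or sex is given. For the combined diet, Covi-Ox was started 2 weeks before cuprizone, and whether the mice fed Covi-Ox alone also had these extra weeks is not stated. Nothing in the labels says that arrays of a group come from separate animals, and the p-values below therefore reflect the spread between samples, which may be technical.

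Tocopherols are the vitamin E family, lipid-soluble antioxidants that sit in membranes and stop chains of lipid peroxidation. They enter cells with lipoproteins through lipid receptors, are carried by transfer proteins, and are broken down after oxidation of their side chain by P450 enzymes. In macrophages they are also known to act on kinases such as protein kinase C, and microglia answer to damage with a known programme of lipid and lysosomal genes, the late disease-associated microglia (DAM) genes.

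The 22 arrays had median intensities of 36.1 to 38.6, and those of the WT Covi-Ox arrays (36.2 to 37.6) and WT control arrays (36.2 to 37.4) overlapped. Pairs of WT Covi-Ox arrays differed with an SD of 0.231 to 0.267 (log2) across genes, and the 2 WT control arrays with an SD of 0.24. The mean of WT Covi-Ox and the mean of WT control differed with an SD of 0.218. Means of arrays vary less than single arrays, so this last value is not directly comparable with the others. Immediate-early genes, which respond to cell dissociation, averaged 9.76 to 9.86 (log2) on WT Covi-Ox arrays and 9.74 to 9.85 on WT control arrays. The 3 arrays of the series that were low in these genes all belong to cuprizone groups. Microglial markers were bright in both groups, while only 1 of 12 neuron genes and 2 of 13 genes of T and NK cells passed the filter.

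Most of the transcriptome differed little. S100a8 and S100a9, which form calprotectin, an abundant protein of neutrophils and monocytes, fell by 5.99 and 5.24 on the log2 scale in WT Covi-Ox microglia. Tagap, a GTPase-activating protein of immune cells, and Leap2, a secreted peptide known from liver and gut, rose by 1.09 and 0.88. These 4 genes, 0.0338% of the 11830 tested, passed an adjusted p of 0.05 in limma. Without adjustment 862 genes (7.29%) had a p under 0.05, of which 381 were higher (3.22%) and 481 lower (4.07%). With so few arrays, groups that do not overlap are common: all Covi-Ox arrays were above both control arrays in 1589 genes (13.4%) and below both in 1756 (14.8%). The median difference was -0.01 (log2), 97.8% of genes lay within 0.5 of 0, and 23 genes differed by 2-fold or more, 7 upward and 16 downward. Of all genes, 6167 lay below 0 (52.1%) and 5663 above it, and counts of list members on either side of 0 stand beside these. With 3 arrays against 2 the median standard error was 0.151 (log2), which sets how small a difference could pass. The count changed with the arrays and settings of the fit, and the cause was not tested. The count was 18 when only the 5 arrays were fitted, 36 without the 3 arrays low in immediate-early genes, and 52 with array weights.

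**Figure D1:**
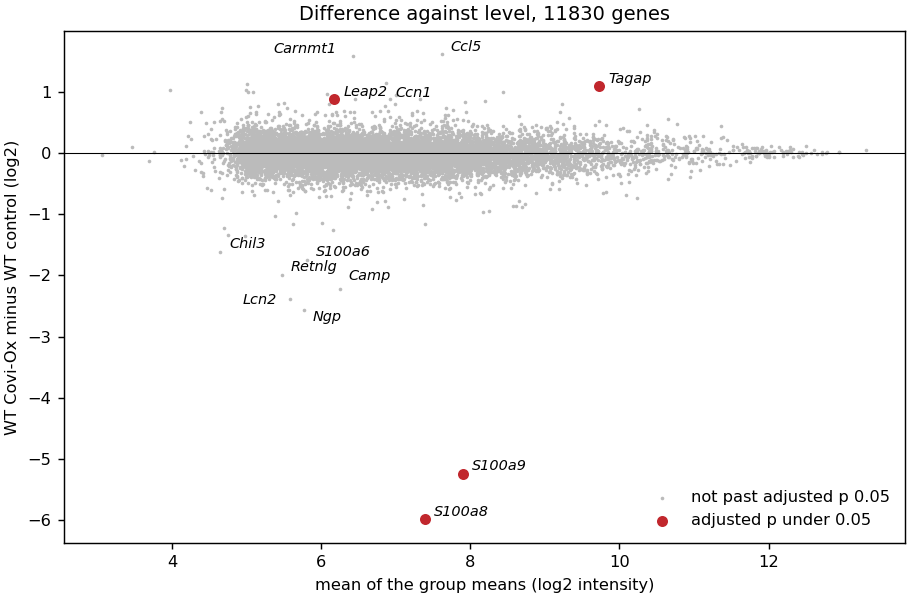
Difference between WT Covi-Ox and WT control (log2, vertical axis) against the mean of both group means (log2 intensity, horizontal axis) for each of the 11830 genes. Red points are the 4 genes past the adjusted p of 0.05. S100a8 at -5.99 and S100a9 at -5.24 lie far below the other genes, and Tagap at 1.09 is the brightest of the genes that were higher by 2-fold or more.

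The calprotectin genes and the other neutrophil genes made up the largest differences. Calprotectin is released by activated neutrophils and signals through Toll-like receptor 4, and both of its genes lie on chromosome 3 in the S100 cluster. S100a8 had an intensity of 27.2, 23.7 and 14.7 on the WT Covi-Ox arrays, against 1379 and 1300 on the WT control arrays. All 3 Covi-Ox values lay below the median of their array, where levels are not exact, and far from both control values. The difference was -5.99 ± 0.70 (log2, SE, adjusted p = 0.000331), a 63.3-fold lower mean as measured, or 36.4-fold when the Covi-Ox level is set to the array medians. S100a9 had 79.3, 29.9 and 24.8 on the WT Covi-Ox arrays, against 1378 and 1565 on the WT control arrays. The groups did not overlap, although the first Covi-Ox array was higher than the other 2. The difference was -5.24 ± 0.71 (SE, adjusted p = 0.0019), a 37.7-fold lower mean. Without either WT control array the S100a9 call was lost (highest adjusted p 0.0998), while S100a8 passed in each of the 20 alternatives tried.

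The S100 family followed in part. Of its 16 members with a probe set, named here after their values were seen, 13 lie on chromosome 3 and 11 passed the filter, 7 of them below 0 and 4 above it. Besides the calprotectin pair, S100a6 (-1.74), S100a4 (-1.16), S100a11 (-0.95) and S100a10 (-0.89) had the lowest values, and none of these passed. S100a6 had 43.6, 30.7 and 21.2 on the WT Covi-Ox arrays, against 78.1 and 134 on the WT control arrays. S100a11, a calcium-binding partner of annexins, had 217, 209 and 229 in WT Covi-Ox, against 371 and 477 in WT control. Of the 11 measured members, 7 were lower on all Covi-Ox arrays, with S100b (-0.35, on chromosome 10) among them, beside 14.8% of all genes. S100a8 and S100a4 lay below the array median on all WT Covi-Ox arrays and passed the filter only through other arrays. These counts therefore describe the family and are no evidence on it. S100a1 (0.32), S100a13 (0.03) and S100a16 (0.00) lay close to or above 0 in the same cluster of genes.

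The list of neutrophil genes had 15 members, of which 10 passed the filter, of which S100a8, Lcn2, Ngp, Retnlg and Chil3 lay above the array median on both WT control arrays and below it on all WT Covi-Ox arrays. The filter counted arrays of any group, and these genes passed only through arrays other than WT Covi-Ox. The counts that follow therefore describe the list and are no evidence on it. Of the 10, 2 were lower at the adjusted threshold and 7 at an unadjusted p under 0.05, their median was -2.10, and 9 lay below 0. This stands beside 0.0338% and 4.07% of all genes and a median of -0.01. Among the 16 genes lower by 2-fold or more, 7 are in this list and 4 are S100 genes, the calprotectin pair being in both. Ngp, a granule protein of neutrophils, had 24.3, 18.6 and 24.5 on the WT Covi-Ox arrays, against 141 and 124 on the WT control arrays (-2.57 ± 0.50, SE, adjusted p = 0.0834). Camp, the precursor of the antimicrobial cathelicidin, had 31.5, 36.1 and 38.4 in WT Covi-Ox, against 203 and 132 in WT control (-2.22 ± 0.45, adjusted p = 0.0834). Lcn2, which binds bacterial siderophores, had 22.7, 19.3 and 20.7 in WT Covi-Ox, against 153 and 76.8 in WT control (-2.38 ± 0.50, adjusted p = 0.0834). None of these granule genes passed. They were lower on all Covi-Ox arrays, which was a condition for naming them and is no result. Retnlg (-1.99) and Chil3 (-1.61), both secreted by neutrophils, were also lower on all Covi-Ox arrays. In all, 7 of the 10 were so, beside 14.8% of the genes tested. Camp, Chil3, Lcn2 and Ngp passed only in the 3 alternatives with the higher counts given above.

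**Figure D2:**
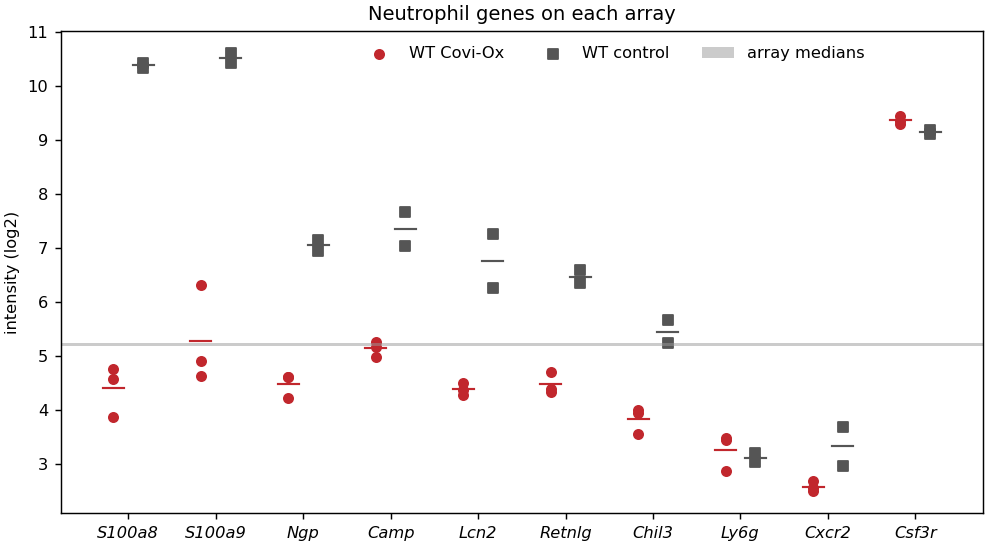
Intensity (log2) of 10 neutrophil genes on each of the 3 WT Covi-Ox arrays (circles) and 2 WT control arrays (squares), with the group mean as a short line and the range of the array medians as a grey band. S100a8 and S100a9 reach 1300 and more on the linear scale only in WT control, Ly6g and Cxcr2 lie below the band in both groups, and Csf3r is bright in both.

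Several other neutrophil genes of the list were low in both groups, unlike Ngp, Camp and Lcn2, which lay above the array medians in WT control. Ly6g, a surface marker of mouse neutrophils, had 7.28, 10.9 and 11.2 on the WT Covi-Ox arrays, against 8.18 and 9.20 on the WT control arrays. Cxcr2, their chemokine receptor, had 5.88, 5.64 and 6.38 in WT Covi-Ox, against 7.80 and 12.9 in WT control. Ltf, Elane and Mmp8 were also below the array medians on all 5 arrays, and Mpo had 31.6 to 36.8 in WT Covi-Ox, against 29.9 and 44.5 in WT control. Within these low signals, Ltf, Mmp8 and Cxcr2 were lower on all Covi-Ox arrays. With them, 10 of the 15 list members were lower without overlap, whether or not they passed the filter, beside 12.8% of the 19936 genes with a probe set. Csf3r, the receptor of granulocyte colony-stimulating factor, which microglia also express, had 633, 658 and 695 in WT Covi-Ox, against 556 and 583 in WT control. Summed over the list, intensity was 967 to 994 on WT Covi-Ox arrays and 4094 to 4105 on WT control arrays. S100a8 and S100a9 held most of the sum on the WT control arrays, and Csf3r most of it on the WT Covi-Ox arrays. The list of monocyte genes had 8 of 13 members measured, all below 0, beside 52.1% of all genes. Its median was -0.31, none passed, and its summed intensity was 421 to 476 in WT Covi-Ox and 567 to 588 in WT control. Plac8 and Chil3, the latter also in the neutrophil list, lay below the array median on all WT Covi-Ox arrays and passed the filter only through other arrays. The count below 0 therefore describes the monocyte list and is no evidence on it. Plac8 (21.0, 20.2 and 18.1 in WT Covi-Ox, against 54.6 and 46.5 in WT control) was the lowest member that is not also a neutrophil gene here, whereas Ccr2, the receptor that brings monocytes to tissue, had a difference of -0.38. Neutrophils and monocytes carry CD11b and CD45, while F4/80, the other marker stained for the sort, is a macrophage marker that neutrophils largely lack. In a sorted population, fewer cells of a type and less RNA per cell cannot be told apart, and the part of such cells in the S100a8 and S100a9 difference was not tested.

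The low calprotectin level was not limited to these 3 arrays. S100a8 ranged from 14.7 to 304 on the 12 arrays of mice fed Covi-Ox in any combination and genotype, and from 258 to 1414 on the 10 arrays without it, so the ranges overlapped narrowly. S100a9 ranged from 24.8 to 271 on the arrays with Covi-Ox and from 262 to 1565 on those without. The WT Covi-Ox arrays held the lowest S100a8 values of the series.

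The promoters of S100a8, S100a9 and Ngp are shown because these 3 genes had the lowest fitted differences, and they are marked for a motif of the C/EBP factors, regulators of granule genes in myeloid cells. Each sequence is from RefSeq (GRCm38.p6), holds 250 bases before and 50 bases from the gene start, and is written in the direction of the gene. Capitals mark matches to TTNNGNAA on either strand, where N is any base, and 40.7% of 32851 promoters of this length hold at least 1 match. The S100a8 promoter (chr3:90668821-90669120, plus strand) held 1 match, that of S100a9 (chr3:90695672-90695971, minus strand) held 2, and that of Ngp (chr9:110419558-110419857, plus strand) held 3.
S100a8: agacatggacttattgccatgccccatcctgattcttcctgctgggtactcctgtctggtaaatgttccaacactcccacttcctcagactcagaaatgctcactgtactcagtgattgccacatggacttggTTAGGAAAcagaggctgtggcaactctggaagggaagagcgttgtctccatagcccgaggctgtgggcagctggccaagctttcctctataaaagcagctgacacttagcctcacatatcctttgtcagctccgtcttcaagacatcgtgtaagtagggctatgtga
S100a9: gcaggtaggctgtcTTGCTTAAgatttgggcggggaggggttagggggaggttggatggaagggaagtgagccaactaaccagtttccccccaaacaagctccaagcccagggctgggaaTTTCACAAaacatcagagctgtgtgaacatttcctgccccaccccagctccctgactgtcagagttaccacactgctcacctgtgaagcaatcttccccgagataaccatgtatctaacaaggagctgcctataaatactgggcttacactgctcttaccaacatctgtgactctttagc
Ngp: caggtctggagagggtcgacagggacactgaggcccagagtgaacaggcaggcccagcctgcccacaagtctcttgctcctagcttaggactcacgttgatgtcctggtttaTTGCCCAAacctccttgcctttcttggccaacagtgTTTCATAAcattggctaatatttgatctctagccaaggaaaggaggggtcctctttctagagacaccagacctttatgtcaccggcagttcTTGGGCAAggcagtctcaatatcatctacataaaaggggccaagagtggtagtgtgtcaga
A match describes letters and not a bound site. Of the other genes looked up, the promoters of Lcn2 and Retnlg held 1 match each, and those of Camp and Tagap held none. Cebpd, the gene of a C/EBP factor itself, had 194, 177 and 149 on the WT Covi-Ox arrays, against 267 and 321 on the WT control arrays, and did not pass (-0.76 ± 0.17, SE, adjusted p = 0.103).

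Upward, Tagap and Leap2 passed. Tagap, which is known from T cells, had 1375, 1234 and 1121 on the WT Covi-Ox arrays, against 610 and 555 on the WT control arrays. The groups were clearly apart, at a 2.13-fold higher mean, and the difference was 1.09 ± 0.13 (log2, SE, adjusted p = 0.000331). On the 19 arrays other than WT Covi-Ox, Tagap ranged from 543 to 1123, the highest of them a KO array of the set whose title gives both additives and whose other fields give Covi-Ox alone. Tagap passed in all 20 alternatives. The difference in Leap2 was smaller. Leap2, known as a blocker of the ghrelin receptor, had 99.2, 85.3 and 111 in WT Covi-Ox, against 56.3 and 50.3 in WT control. Each Covi-Ox value was above all of the other 19 arrays, which ran from 47.6 to 81.1. The difference was 0.88 ± 0.15 (SE, adjusted p = 0.0332), and it passed in 10 of 19 alternatives.

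The next genes upward did not pass. They were chosen for a small p and for groups that do not overlap, so their lack of overlap is no result. Ccn1, a secreted matrix protein that is an early target of growth factors, had 144, 170 and 213 in WT Covi-Ox, against 82.1 and 74.9 in WT control (1.15 ± 0.21, SE, adjusted p = 0.079). Ccl5, a chemokine for T cells, had 268, 347 and 428 in WT Covi-Ox, against 96.5 and 130 in WT control, the highest fitted value upward (1.61 ± 0.35, adjusted p = 0.103). Carnmt1, a methyltransferase that makes anserine, had 105, 149 and 211 in WT Covi-Ox, against 52.3 and 47.3 in WT control (1.58 ± 0.33, adjusted p = 0.0834). Tmcc3 (0.62), Gla (0.94), Dusp3 (0.73), Yars (0.68), Clip1 (0.52), Pou2f2 (0.51) and Sgk1 (0.41) completed the 12 named upward. Gla is a lysosomal galactosidase, Dusp3 a phosphatase of MAP kinases, Yars a tyrosyl-tRNA synthetase and Pou2f2 a transcription factor of lymphoid and myeloid cells. Downward, the 12 named also held Ifitm6 (-1.35), Cysltr1, the leukotriene receptor (-0.58), Crls1, which makes cardiolipin (-0.62), Gadd45a, a stress gene (-0.79), and Ttc32 (-0.70), none of which passed.

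Genes of vitamin E uptake and transport lay slightly above 0. Of 16 in the list 13 were measured, 10 of them above 0, with a median of 0.11, and none passed even an unadjusted p of 0.05. Abcg1, a cholesterol exporter, had 219, 211 and 222 in WT Covi-Ox, against 174 and 170 in WT control (0.34). Lrp1, which takes up lipoproteins, had 439, 407 and 394 in WT Covi-Ox, against 340 and 322 in WT control, and its 95% interval ran from -0.03 to 0.67. Npc1, which exports lipid from lysosomes, had 518, 534 and 547 in WT Covi-Ox, against 422 and 441 in WT control (0.30, interval -0.04 to 0.65). None of these genes passed. They are among 6 of the 13 in which all Covi-Ox arrays were above both control arrays, beside 13.4% of all genes. Ttpa, the tocopherol transfer protein of liver, lay near the floor at 6.13 to 6.36 in WT Covi-Ox and 5.97 and 6.23 in WT control. In the list of breakdown enzymes and their receptor 8 of 14 members were measured, with a median of -0.09. Cyp3a11 and Nr1i2, the enzyme and receptor of the liver response to vitamin E, lay below the array medians. Sult1a1, a sulfotransferase, was the lowest member (-0.37 ± 0.12, adjusted p = 0.43). The list of tocopherol-sensitive kinases and phosphatases had 7 of 14 members above 0 and a median of 0.00, and Prkch, a protein kinase C, was its highest member (0.47, adjusted p = 0.485).

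No antioxidant gene passed. The NRF2 list, targets of the main transcription factor of the oxidative stress response, had 22 of 26 members measured, 13 of them below 0, and a median of -0.01. Hmox1, which degrades haem, had 633, 825 and 820 in WT Covi-Ox, against 836 and 928 in WT control, with a 95% interval from -0.80 to 0.35. Txn1, thioredoxin, was the single member of the 22 with an unadjusted p under 0.05 (-0.33 ± 0.15, adjusted p = 0.636), a share close to the 4.07% of all genes on the lower side. In the list of peroxide and superoxide removal 12 of 16 measured members lay below 0, with a median of -0.10. Gpx4, which reduces lipid peroxides in membranes and shares that role with vitamin E, had 337, 232 and 253 in WT Covi-Ox, against 342 and 347 in WT control. All Covi-Ox values were lower, by a narrow margin on the first array, and the interval ran from -0.72 to 0.02. Sod1, Cat and Prdx2 had differences of 0.06, 0.04 and -0.01. The list of lipid peroxidation and ferroptosis had a median of -0.06 over 16 members, and Alox5ap, which serves leukotriene synthesis, had -0.15.

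Genes of microglial identity lay close to 0. The homeostatic list, genes of resting microglia, had 23 of 25 members measured, 13 above 0 and 10 below, with a median of 0.01 and none past the test. P2ry12, a nucleotide receptor that guides processes, had 3414, 3390 and 3514 in WT Covi-Ox, against 3544 and 3311 in WT control. The values overlapped, and the 95% interval ran from -0.18 to 0.19. For Csf1r, the survival receptor, the interval was -0.16 to 0.19, for Cx3cr1, the fractalkine receptor, -0.14 to 0.27, and for Tmem119 -0.30 to 0.12. Trem2 itself, the lipid-sensing receptor, had 1291, 1022 and 1192 in WT Covi-Ox, against 1294 and 1336 in WT control (-0.44 to 0.09). Apoe, the main lipoprotein of the brain, had 4295, 4018 and 4321 in WT Covi-Ox, against 4244 and 4588 in WT control (-0.37 to 0.24).

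The late DAM genes, which rise in microglia around damaged myelin, lay above 0 in 18 of 21 measured members, with a median of 0.14 and none past the test. At an unadjusted p under 0.05, 3 of the 21 were higher, beside 3.22% of all genes. Csf1, a growth factor of microglia, had 268, 355 and 357 in WT Covi-Ox, against 173 and 190 in WT control (0.84 ± 0.23, SE, adjusted p = 0.274). Cst7, an inhibitor of cathepsins, had 161, 125 and 222 in WT Covi-Ox, against 73.2 and 109 in WT control (0.88 ± 0.40, adjusted p = 0.659). Clec7a, the receptor dectin-1, had 90.6, 108 and 102 in WT Covi-Ox, against 65.9 and 76.7 in WT control (0.49 ± 0.21, adjusted p = 0.608). In these genes and 4 others of the 21, 7 in all, each Covi-Ox array was above both control arrays, beside 13.4% of all genes. Lpl (0.19), Itgax (0.18), Axl (0.39) and Gpnmb (0.31) did not pass either.

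Against WT cuprizone, which differs from WT Covi-Ox in both additives, the same list was far lower in WT Covi-Ox. Of the 21 members 16 were lower and none higher at an adjusted p under 0.05 in limma, and the list median was -1.32. At that threshold 2.71% of all genes were lower (321) and 0.997% higher (118). Under quantile normalization the split of all genes moved to 184 higher of 461. With only the arrays of these groups 25 genes passed in place of 439, and without the third WT cuprizone array, one of the 3 low in immediate-early genes, 126 passed. Cst7 differed by -3.22, Lpl by -3.17, Itgax by -3.09, Axl by -2.50 and Clec7a by -2.33. Csf1 differed by -1.31. The interferon list gave a similar picture, with 14 of 22 members lower than in WT cuprizone at the adjusted threshold and a median of -0.90. Its median against WT control was -0.03. The comparisons with WT control and with WT cuprizone share the Covi-Ox arrays, so these values stand side by side and are not independent. In WT cuprizone against WT control, with no Covi-Ox array, 16 of the 21 late DAM members passed, and the list median was 1.66. There 11 of the 22 interferon members passed, with a median of 0.81. The lower levels against WT cuprizone therefore do not isolate an effect of Covi-Ox. The lists were also chosen with earlier results of these data known.

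**Figure D3:**
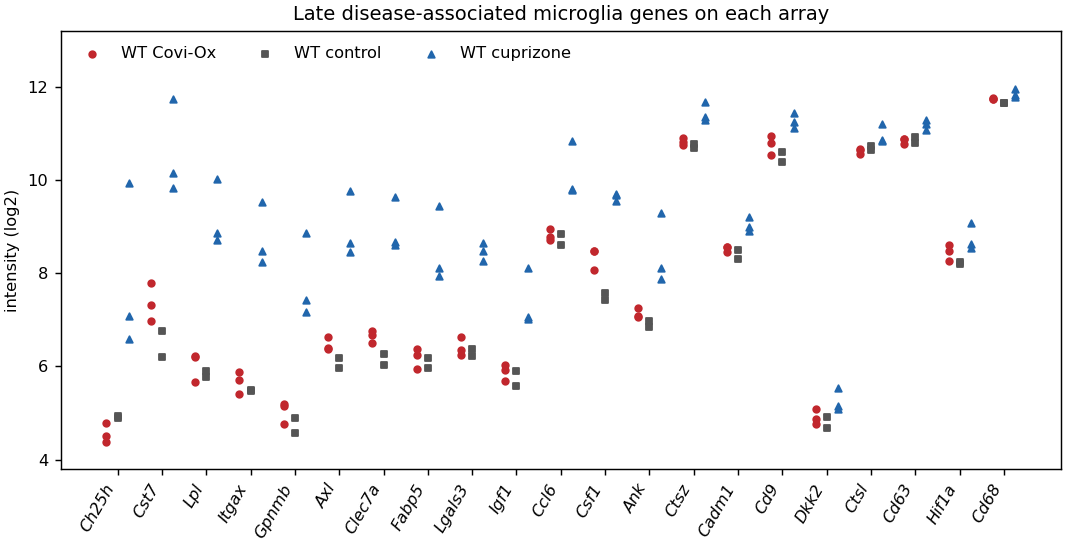
Intensity (log2) of the 21 measured late DAM genes on each WT Covi-Ox array (circles), WT control array (squares) and WT cuprizone array (triangles), ordered by the difference between WT Covi-Ox and WT cuprizone. Circles and squares lie close together, while the triangles of Cst7, Lpl and Itgax lie higher by about the 3 log2 units given in the text.

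Gene lists of immune signalling had medians close to 0, and none of their genes passed. The inflammatory cytokine and chemokine list had 21 members measured, 9 above 0 and 12 below, and a median of -0.04. Ccl5 was its highest member (1.61). Ccl2, a chemokine for monocytes, was its lowest (-0.68), at 993, 728 and 882 in WT Covi-Ox, against 1386 and 1372 in WT control. Tnf (-0.25), Il1b (-0.04) and Il1a (0.03) overlapped between the groups. Toll-like receptors and their partners lay below 0 in 10 of 14 members (median -0.09), and 3 of 14 had an unadjusted p under 0.05 on the lower side, beside 4.07% of all genes. Tlr4, the receptor of calprotectin and endotoxin, had 610, 580 and 613 in WT Covi-Ox, against 731 and 774 in WT control (-0.32 ± 0.12, SE, adjusted p = 0.491). Ly96, its co-receptor, had 296, 174 and 214 in WT Covi-Ox, against 306 and 402 in WT control (-0.65 ± 0.22, adjusted p = 0.462). Neither passed, and both are among the 7 of 14 members that were lower on all Covi-Ox arrays, beside 14.8% of all genes. MHC class II genes, which present antigen, lay below 0 in 8 of 9 members (median -0.15), with H2-Ab1 at 686, 491 and 589 in WT Covi-Ox, against 817 and 825 in WT control (-0.49, adjusted p = 0.562). Fc gamma receptors were below 0 in 5 of 5 members, the lowest being Fcgr2b at -0.17.

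No stress or hormone gene passed. Heat shock genes and chaperones lay below 0 in 17 of 19 members (median -0.14), beside 52.1% of all genes. An unadjusted p under 0.05 on the lower side was found in 4 of 19, beside 4.07% of all genes. Dnajb1, a partner of heat shock protein 70, had 269, 333 and 321 in WT Covi-Ox, against 478 and 582 in WT control (-0.78 ± 0.32, SE, adjusted p = 0.586). Hspa1a, heat shock protein 70 itself, had 419, 603 and 466 in WT Covi-Ox, against 384 and 439 in WT control (0.26), so it did not share this direction. Glucocorticoid-response genes had the highest median of the 43 lists with at least 3 measured members (0.18), with 7 of 11 above 0 and 3 higher at an unadjusted p under 0.05, beside 3.22% of all genes. Tsc22d3, an anti-inflammatory target of the hormone, had 692, 729 and 807 in WT Covi-Ox, against 479 and 459 in WT control (0.66 ± 0.20, adjusted p = 0.391). Sgk1, a kinase target, had 804, 763 and 752 in WT Covi-Ox, against 590 and 571 in WT control (0.41 ± 0.09, adjusted p = 0.107). Fkbp5 (-0.10) and Errfi1 (-0.51), which also respond to the hormone, did not share the direction. Cry1 of the circadian clock had 153, 158 and 142 in WT Covi-Ox, against 92.5 and 94.4 in WT control (0.69, adjusted p = 0.43), and Arntl, another clock gene, was at -0.43.

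**Figure D4:**
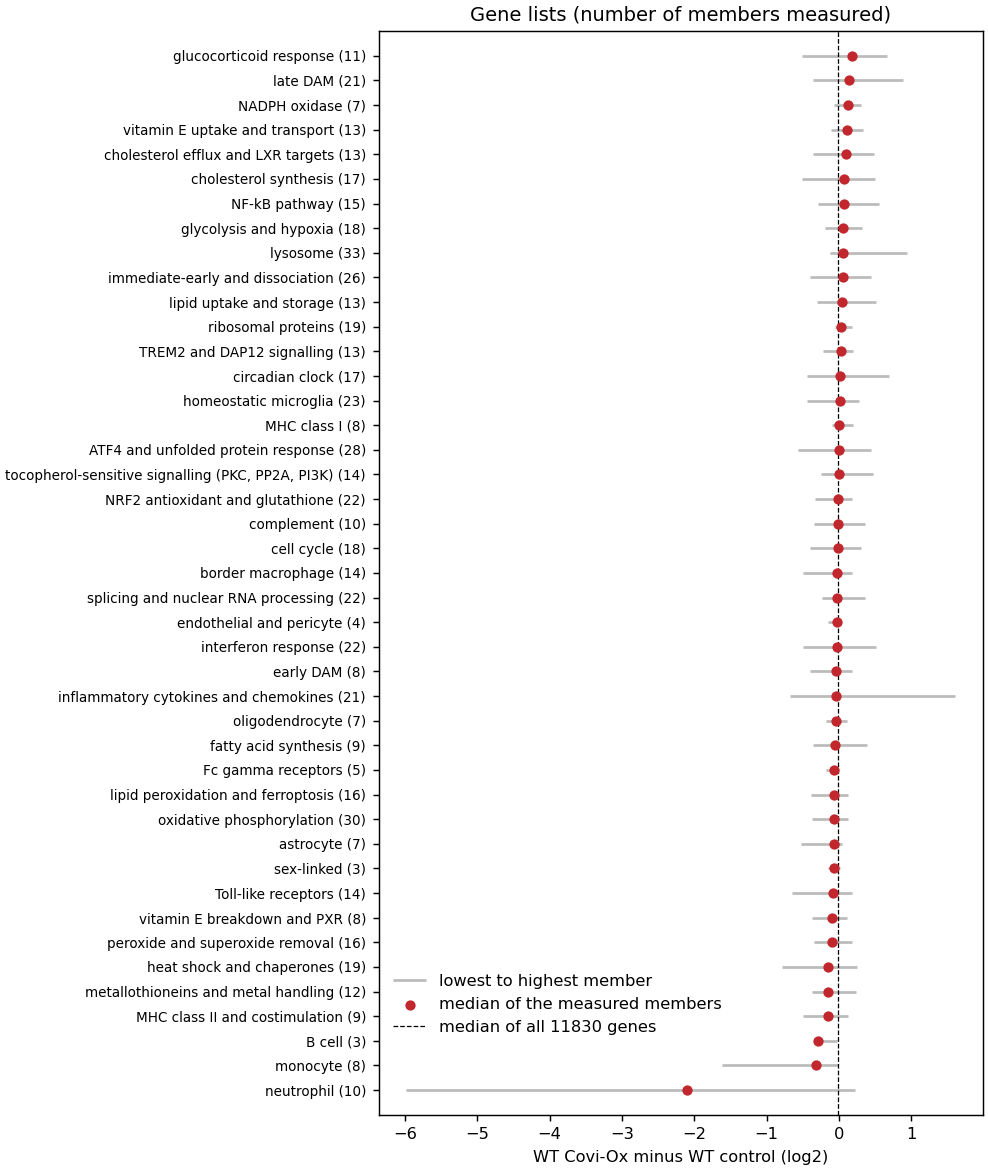
Median difference between WT Covi-Ox and WT control (log2, red points) of each gene list with at least 3 measured members, with the lowest and highest member as a grey line and the median of all 11830 genes (-0.01) as a dashed line. The neutrophil list stands at -2.10 and the monocyte list at -0.31, and the other medians lie between -0.28 and 0.18.

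Covi-Ox was also present beside cuprizone, in the comparison of WT both with WT cuprizone, which shares no array with the comparison above. There 18 genes passed (0.152%), 13 of them higher and 5 lower, and none was among the 4. That count was 2 with only these arrays, 104 without the third WT cuprizone array and 4 without the second. Over the 11830 genes the fitted differences of both comparisons had a Pearson r of 0.13 and a Spearman coefficient of 0.07, given as a description across genes, which are not independent replicates. The neutrophil list had a median of -2.10 for Covi-Ox without cuprizone and of -0.84 beside it. S100a8 had 125, 179 and 108 in WT both, against 822, 517 and 258 in WT cuprizone, and all WT both values were lower. The difference did not pass (-1.84 ± 0.63, SE, adjusted p = 0.363), and neither did that of S100a9 (-2.09 ± 0.64, adjusted p = 0.263).

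The effect of Covi-Ox without cuprizone minus that beside it was tested directly, and 3 genes passed (0.0254%). Tagap had 543, 543 and 619 in WT both, against 640, 764 and 753 in WT cuprizone, so it was lower on every array there and higher with Covi-Ox alone. The lower level beside cuprizone did not pass by itself in limma (-0.34 ± 0.11, SE, adjusted p = 0.333). The difference of effects was 1.43 ± 0.17 (log2, SE, adjusted p = 0.000634). Ccn1 had 76.8, 56.0 and 75.7 in WT both, against 83.4, 146 and 117 in WT cuprizone, with a difference of effects of 1.86 ± 0.29 (adjusted p = 0.012). Beside cuprizone alone its difference did not pass either (-0.71 ± 0.19, adjusted p = 0.197). Olr1, the receptor of oxidized low-density lipoprotein, went the other way. It had 276, 267 and 302 in WT both, against 74.6, 39.8 and 43.1 in WT cuprizone, and its level with Covi-Ox alone was 26.3, 20.5 and 21.3, against 15.3 and 16.4 in WT control. Its difference of effects was -1.97 ± 0.27 (adjusted p = 0.00309), with 0.51 ± 0.20 without cuprizone and 2.48 ± 0.18 beside it. The Olr1 values of WT Covi-Ox and WT control all lay below the array medians, where levels are not exact. The size of its effect without cuprizone, and so of the difference of effects, is therefore not exact. Fitted on the 11 WT arrays alone, Tagap passed and Olr1 and Ccn1 did not. Without the second WT control array Tagap alone passed, and without the third WT cuprizone array 32 genes did. S100a8 (-4.15 ± 0.95, adjusted p = 0.189) passed in the fit of the 11 WT arrays. Leap2 did not pass (0.75 ± 0.20, adjusted p = 0.388).

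**Figure D5:**
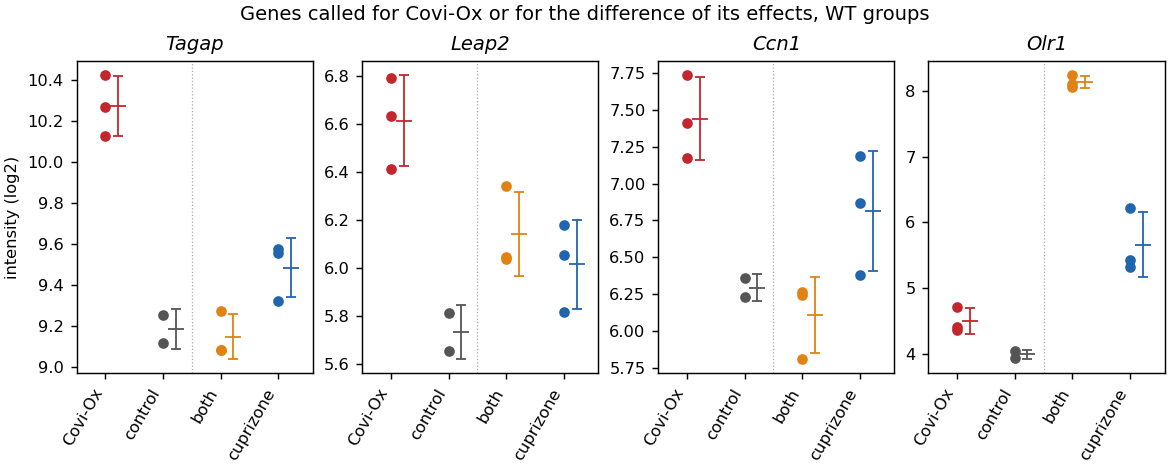
Intensity (log2) of Tagap, Leap2, Ccn1 and Olr1 on each array of WT Covi-Ox, WT control, WT both and WT cuprizone, with the mean and SD (bars, n = 3, 2, 3 and 3) beside the points. Each panel has its own axis that does not start at 0. Tagap and Ccn1 are highest with Covi-Ox alone, and Olr1 is highest with both additives.

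Markers of other brain cells gave no difference that passed. Oligodendrocyte genes had 7 of 14 members measured and a median of -0.04, and Mbp, a myelin protein, had 90.6, 77.6 and 77.5 in WT Covi-Ox, against 84.7 and 100 in WT control. Astrocyte genes had a median of -0.07, endothelial genes -0.03 and border macrophage genes -0.02. Of T and NK cell genes only 2 of 13 were measured, Ccl5 and Cd3e, and Cd3e, a part of the T cell receptor, had 45.9, 49.3 and 53.6 in WT Covi-Ox, against 54.9 and 47.9 in WT control. Cd3d, Cd3g, Nkg7 and Gzmb lay below the array medians, and their part in the Ccl5 and Tagap values was not tested.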

How the data were processed

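RNA of sorted microglia had been hybridised to 22 mouse gene arrays. The authors deposited linear intensity values, normalized with RMA per the submitters' processing notes. Its version is not given in the sources used here. Precision is limited by how few arrays each group holds. Of 28098 probe sets, 21640 name a single gene in the platform's annotation, 1321 several, and 5137 were unlisted. The single-gene probe set with the highest mean stood for each gene, and genes were kept if they exceeded the 50th percentile of 2 or more arrays. The log2 of the deposited intensity was fitted with limma 3.58.1 in R 4.3.3, with 8 group means of all 22 arrays (14 residual degrees of freedom, prior 5.49), so that groups outside a comparison help to set its error. Tests were two-sided, with Benjamini-Hochberg adjustment over 11830 genes, and an adjusted p under 0.05 was called. The workflow was tested on simulated data.

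Groups came from the labels, and 6 KO arrays whose labels contradict each other entered only the spread. Genes named are up to 12 in each direction (called ones first, then by smallest p without overlap, leaving out clones), up to 4 called or 2 lowest-p members of each of 43 gene lists, up to 6 genes of the difference of effects, and 14 markers fixed by name. Further list and S100 members were named after their values were seen. The members and lists were chosen with earlier results of these data known. Tried as alternatives were a replicate block, other sets of arrays, other filters, normalizations, probe set rules and thresholds, limma's trend, robust and array weight options, and leaving out each array in turn. Replicate numbers did not pair the arrays (correlation of deviations -0.17 and -0.14). No scan or extraction date is given. Promoters are from RefSeq GRCm38.p6.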

Additional observations from a re-analysis of the deposited data

Results flagged for a closer look

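In 3 genes the effect of Covi-Ox without cuprizone (WT Covi-Ox against WT control) differed from its effect beside cuprizone (WT both against WT cuprizone), by a test of the difference itself over all 22 arrays in limma. For Tagap the difference of effects was 1.43 (log2), with all 3 WT Covi-Ox arrays above WT control and all 3 WT both arrays below WT cuprizone. The Tagap difference beside cuprizone did not pass by itself (-0.34, adjusted p = 0.333 in limma). For Ccn1 the difference of effects was 1.86, and for Olr1 -1.97. The adjusted p-values of these differences of effects in limma were 0.000634, 0.012 and 0.00309. Tagap also passed on the 11 WT arrays alone, where Ccn1 and Olr1 did not. The Olr1 values of WT Covi-Ox and WT control all lay below the array medians, where levels are not exact.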

How the results depend on the processing

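Results are counts of genes past the threshold unless named otherwise. For WT Covi-Ox minus WT control (4 genes), the replicate block gave 3, the 5 arrays alone 18, leaving out the 3 arrays low in immediate-early genes 36, and array weights 52; leaving out 1 array of the groups gave 2 to 4. For WT both minus WT cuprizone (18 genes), the counts were 17 with the replicate block, 2 with its own arrays, 8 with the 11 WT arrays, 150 without the 3 low arrays, 9 without a filter, 10 with a filter at the 75th percentile, 150 with array weights, 5 at an adjusted p under 0.01, and 4 to 104 without 1 array. For the difference of effects (3 genes), they were 3 with the replicate block, 2 with the 11 WT arrays, 40 without the 3 low arrays, 27 with array weights and 1 to 32 without 1 array. For WT Covi-Ox minus WT cuprizone (439 genes), they were 373 with the replicate block, 25 with its own arrays, 249 with the 11 WT arrays, 188 without the 3 low arrays, 161 at an adjusted p under 0.01, 280 with a change of at least 1.5-fold, and 126 to 636 without 1 array. Fewer arrays, or a stricter threshold, enter some of these by construction, and otherwise the cause was not tested.

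Tagap and S100a8 passed in 20 of 20 alternatives, S100a9 in 18 of 20, and Leap2 in 10 of 19. No called gene turned its sign; among the 112 named genes, 7 that were not called did so in 11 of 2221 gene and alternative pairs. Fits without KO control array 2, which stands apart from the other arrays (5 genes), or without the KO sets of contradictory labels (3 genes) were chosen after seeing the data. The pairing by replicate number was not borne out by the arrays, whose deviations correlated at -0.17 to -0.02. Signals at or below the array medians carry no exact level, and 2 control arrays limit every difference.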

Other observations

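Further gene lists gave no gene past the adjusted threshold between WT Covi-Ox and WT control. Metabolic genes stayed near the median of all genes. The lysosome list had a median of 0.06 over 33 measured members, 20 of them above 0, and apart from Gla its highest named member was Psap, the precursor of lysosomal lipid-binding proteins (0.25 ± 0.10, SE, adjusted p = 0.57). Oxidative phosphorylation subunits lay below 0 in 21 of 30 members (median -0.06), with Ndufa4 the lowest named (-0.37). Glycolysis and hypoxia genes had a median of 0.06, and Hk2, a hexokinase, had 305, 313 and 295 in WT Covi-Ox, against 247 and 243 in WT control (0.31 ± 0.12, adjusted p = 0.534). Cholesterol synthesis genes had a median of 0.07, with Srebf2, their regulator, at 0.25, cholesterol efflux genes 0.10, lipid uptake genes 0.04 and fatty acid synthesis genes -0.05, with Acly, which makes acetyl-CoA, at -0.31. Metallothioneins and metal handling genes lay below 0 in 8 of 12 members (median -0.14), and Atox1, a copper chaperone, was at -0.33.

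Among immune and stress genes, Hvcn1, a proton channel that supports the oxidative burst, had 290, 298 and 304 in WT Covi-Ox, against 238 and 241 in WT control (0.31 ± 0.14, adjusted p = 0.655), and the NADPH oxidase list had a median of 0.13 over 7 members. Lyz2, lysozyme, was the lowest of 8 early DAM genes (-0.40 ± 0.15, adjusted p = 0.545, list median -0.03). Ddit3, a factor of the unfolded protein response, had 284, 336 and 298 in WT Covi-Ox, against 432 and 475 in WT control (-0.57 ± 0.22, adjusted p = 0.55), while its list of 28 was split 14 to 14 around 0. Pcna, a replication clamp, was at -0.34 and Mcm3, a replication helicase subunit, at 0.31 in a cell cycle list with a median of -0.02. Medians were 0.07 for NF-kB genes, 0.01 for MHC class I, -0.01 for complement, 0.02 for TREM2 signalling, 0.02 for clock genes, 0.05 for immediate-early genes, 0.04 for ribosomal proteins, -0.02 for splicing genes and -0.28 for 3 B cell genes. The sex-linked genes had differences of -0.15 to 0.01. The neuron and erythroid lists had 1 measured gene each.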
